A study of Mus musculus with 22 samples.

Results

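The genes described here encode the FOS, JUN and EGR transcription factors. They were the rows of the deposited right ventricle (RV) and left ventricle (LV) tables whose Ensembl IDs map to Fos, Fosb, Fosl1, Fosl2, Jun, Junb, Jund, Egr1, Egr2 and Egr3. All 10 were found, among 49670 genes in the RV table and 49671 in the LV table. They were chosen by name, with earlier results of these data known.

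Ventricles of neonatal CD1 mice, an outbred strain, were sequenced as bulk RNA. The 4 groups were RV nPAB (6 mice), LV nPAB (the same 6 mice), RV Sham (5 mice) and LV Sham (the same 5 mice). In nPAB, or neonatal pulmonary artery banding, the pulmonary artery was narrowed on postnatal day 1 around a 30G needle, which loads the RV. Sham mice had a sham operation, and all hearts were harvested 7 days later. The labels give no mutant allele or drug for any group and put all 22 libraries in batch 1. Mouse numbers 10 and 11 occur in both treatments for different animals. The p-values below measure the spread between these mice. Library depth was 7.11 to 11.3 M reads. In nPAB mice 6 and 7 the genes Xist and Ddx3y gave opposite sexes for the RV and the LV library, against the labels, while 9 of 11 mice gave 1 sex. For the genes with enough counts to be fitted, the tests within each ventricle are therefore given also without these mice. So are the counts of each gene list within each ventricle. For the difference between ventricles this is given for Fos, Fosl2 and Egr1 only. Fosb, Fosl1 and Egr3 were not tested with both mice left out.

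FOS proteins pair with JUN proteins through a leucine zipper to form AP-1, which binds DNA at TGACTCA and related sites, while FOS proteins do not form stable dimers with each other. EGR proteins bind GC-rich sites through zinc fingers. Most of these genes are immediate early genes: growth factors, stretch and other stimuli switch them on within minutes through kinase cascades and factors already present, and their messages decay quickly. In heart muscle they are among the first genes to respond to pressure load in the adult.

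The DNA just before a RefSeq start of 3 of the genes is shown because it carries letters that the textbook inputs of these genes read. Each line is the 250 bases before the annotated start on the gene's own strand, from RefSeq on GRCm38.p6 (the mm10 build). The capitals mark matches, on either strand, to the CRE half-site TGACG bound by CREB and ATF factors, the TATA box TATAAA, the JUN promoter site TGACATCA and the CArG box bound by SRF. The Egr2 line is 1 of 5 Egr2 windows in the table and lies inside the GENCODE span of the gene, before an internal start. The window at the first Egr2 start held none of these letters. Fos is read at chr12:85473640-85473889 on the plus strand, Jun at chr4:95052223-95052472 on the minus strand and Egr2 at chr10:67537619-67537868 on the plus strand.
Fos: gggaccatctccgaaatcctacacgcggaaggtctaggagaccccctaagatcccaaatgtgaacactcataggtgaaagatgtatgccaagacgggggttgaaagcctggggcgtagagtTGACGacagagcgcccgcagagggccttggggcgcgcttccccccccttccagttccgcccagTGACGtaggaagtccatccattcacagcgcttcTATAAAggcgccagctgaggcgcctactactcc
Jun: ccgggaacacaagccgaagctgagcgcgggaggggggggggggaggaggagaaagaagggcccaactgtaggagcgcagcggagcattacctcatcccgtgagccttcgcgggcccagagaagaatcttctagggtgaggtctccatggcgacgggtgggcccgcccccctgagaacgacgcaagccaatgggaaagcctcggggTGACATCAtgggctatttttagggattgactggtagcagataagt
Egr2: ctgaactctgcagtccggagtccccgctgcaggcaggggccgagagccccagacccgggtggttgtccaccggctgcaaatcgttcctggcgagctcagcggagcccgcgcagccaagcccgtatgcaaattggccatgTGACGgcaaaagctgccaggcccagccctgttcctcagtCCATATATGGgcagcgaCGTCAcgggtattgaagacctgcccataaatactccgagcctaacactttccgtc
Counted back from the start, the Fos half-sites lay at -129 to -125 and at -66 to -62, and its TATA box at -33 to -28. In Jun the site TGACATCA lay at -45 to -38. In the Egr2 window the CArG box lay at -72 to -63, between half-sites at -111 to -107 and at -55 to -51. Other Egr2 windows also held a CArG box. TGACG was also in Fosb at -60 to -56, left in small letters below, and in Junb at -106 to -102. Bases farther than 250 from a start were not searched. Among 32851 windows of this length in the same table, TGACG occurred in 17.8%, TATAAA in 12.4%, TGACATCA in 2.93% and the CArG box in 1.47%.

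Fosl2 and Fosb each held the EGR site GCGGGGGCG, present in 2.57% of windows and shown here in capitals with 10 bases on either side. The Fosl2 stretch is chr5:32136383-32136411 on the plus strand and the Fosb stretch is chr7:19310077-19310105 on the minus strand.
Fosl2: ccggctgcgcGCGGGGGCGgaagggcgcg
Fosb: tgacgcaagcGCGGGGGCGggtcccggag
Counted from the RefSeq starts, the site lay at -79 to -71 in Fosl2 and at -50 to -42 in Fosb. Both windows overlap exons that GENCODE annotates for the same gene, and the Fosl2 stretch lies inside its GENCODE span. The letters TGACTCA (4.46% of windows), TGACGTCA (1.55%) and GCGTGGGCG (0.536%) were in none of the 11 windows of the 7 genes that had one. Egr2 had 5 windows. The search read letters only and measured no binding.

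Per kilobase of exon, Jun, Jund and Egr1 stood highest in all 4 groups, and Fosb, Egr3 and Fosl1 stood lowest. In RV nPAB the mean normalized counts per kb were 193 for Jun, 178 for Jund, 131 for Egr1, 29.1 for Fosl2, 20.8 for Junb, 9.39 for Fos and 7.26 for Egr2. In RV Sham they were 215 for Jun, 149.8 for Jund, 68.7 for Egr1, 16.8 for Junb, 15.6 for Fosl2, 3.89 for Egr2 and 3.57 for Fos. Fosl1, Egr3 and Fosb lay between 0.503 and 1.46 per kb in both RV groups. Among neighbours in the order, only Egr1 and Fosl2 had ranges that did not overlap in RV nPAB. In RV Sham the ranges separated Jund from Egr1 and Egr1 from Junb, and all other neighbours overlapped.

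In the LV, Jund led in nPAB at 192.5 per kb, ahead of Jun at 185, with overlapping ranges, and Egr1 followed at 95.2. In LV Sham, Jun led at 217 per kb, followed by Jund at 155 and Egr1 at 73.4. The middle of the order was Fosl2, Junb, Fos and Egr2 in LV nPAB, at 23.5, 18.1, 8.73 and 3.51 per kb. In LV Sham it was Junb, Fosl2, Fos and Egr2, at 18.8, 16.3, 4.14 and 2.76 per kb. Neighbours whose ranges did not overlap were Jun and Egr1, and Egr1 and Fosl2, in LV nPAB. In LV Sham they were Jund and Egr1, Egr1 and Junb, and Fosl2 and Fos.

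**Figure D1:**
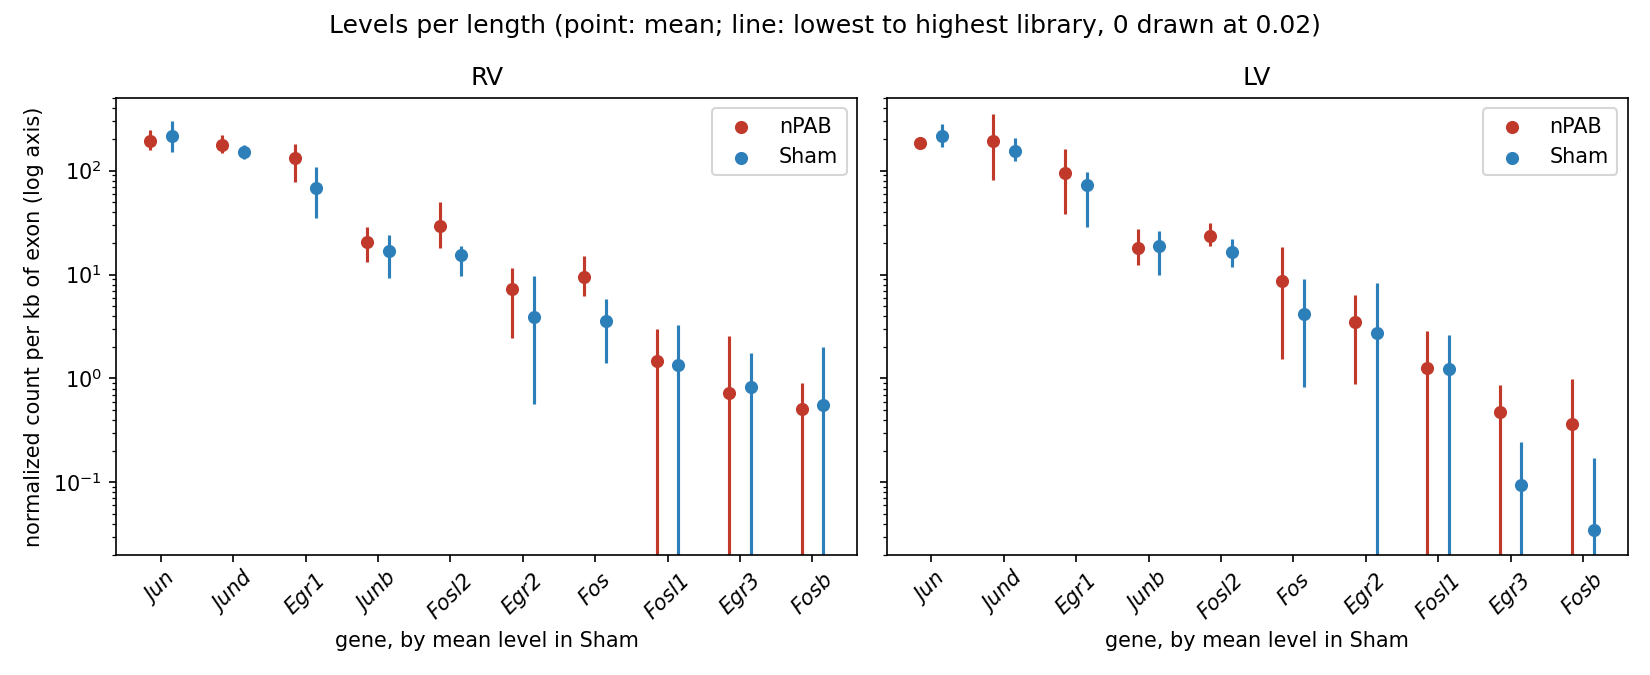
Points show the mean normalized count per kb of exon (log axis) of each FOS, JUN and EGR gene in nPAB and Sham in the RV and LV panels, with lines for the lowest and highest library. Jun, Jund and Egr1 stand highest in every group, and Fosb, Egr3 and Fosl1 lowest.

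By family, the JUN genes carried most of the message. Summed per kb, they gave 391 ± 50.6 (SD, n = 6) in RV nPAB and 381.5 ± 77.0 (n = 5) in RV Sham. The FOS genes summed to 40.4 ± 12.8 per kb in RV nPAB and 21.0 ± 4.11 in RV Sham, with Fosl2 contributing 71.4% of the sum in nPAB and 73.6% in Sham on average. The EGR genes summed to 139 ± 43.5 per kb in RV nPAB and 73.5 ± 27.7 in RV Sham, nearly all of it Egr1 (94.1% in nPAB and 91.6% in Sham). In the LV the FOS sums were 33.9 ± 8.81 in nPAB and 21.7 ± 6.96 in Sham, and the EGR sums were 99.1 ± 45.8 in nPAB and 76.2 ± 33.0 in Sham. The LV JUN sums were 396 ± 108 per kb in nPAB and 390.5 ± 58.7 in Sham. With nPAB mice 6 and 7 left out (n = 4), the nPAB sums were 37.3 (FOS), 380.2 (JUN) and 146 (EGR) in the RV, and 32.2, 411 and 82.3 in the LV.

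The first comparison asked how the genes stood in the loaded RV. Banding was accompanied by higher Fos and Fosl2, while no JUN gene passed the test in either direction. Of the 10 genes, 7 had a mean of at least 10 normalized counts over the RV libraries and entered the fit over all genes. By limma with an adjusted p under 0.05, 2 of these 7 rose and 0 fell. At an unadjusted p under 0.05 there were 4 of 7, against 33.8% of all RV genes, and on reads recovered from the values edgeR called 2 and DESeq2 called 3. Over all 13660 genes tested in the RV, 11.1% were called higher in nPAB, 10.8% were called lower and 22.0% were called in either direction. The median log2 fold change of the 7 was 0.86, and that of all genes tested was 0.0001. A filter on the mean keeps a gene that is high in 1 group, so the 7 are not all members. Fos is such a gene: its RV Sham mean of 8.39 was under 10, and it passed through its RV nPAB mean of 22.1. In the LV the Sham means of Fos (9.73) and Egr2 (9.39) were also under 10. In bulk tissue, fewer cells of a type and less RNA per cell cannot be told apart, which applies to every difference below.

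Fos, on chr12:85473890-85477273, encodes the AP-1 partner that gives the FOS family its name and is induced and lost quickly. Its normalized counts in RV nPAB ran from a lowest of 14.6 through a median of 19.4 to a highest of 35.6. In RV Sham they were 11.7, 3.29, 3.97, 13.6 and 9.39 in mice 9 to 13. Every RV nPAB library lay above every RV Sham library, which held for 6.84% of all genes tested in the RV. The means were 22.1 ± 8.39 (SD, n = 6) in nPAB and 8.39 ± 4.60 (n = 5) in Sham. The log2 fold change was 1.39, with a standard error of 0.43, a 95% interval of 0.48 to 2.30 and a limma adjusted p of 0.0277. These values rest on few reads, 13 to 35 in RV nPAB libraries and 3 to 14 in RV Sham libraries. The call was lost without nPAB mouse 5 (1.24, adjusted p = 0.0703), nPAB mouse 6 (1.31, 0.0566) or nPAB mouse 10 (1.36, 0.0529). It was also lost without Sham mouse 10 (1.15, 0.068), Sham mouse 11 (1.20, 0.0657) or nPAB mice 6 and 7 together (1.39, 0.0655).

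Fosl2, on chr5:32135801-32157842, encodes FRA2, a FOS relative without the strong activation domain of FOS and slower to appear. In RV nPAB it had a lowest value of 175.0, a median of 264 and a highest of 484 normalized counts. The RV Sham mice had 154, 93.2, 184, 169 and 153. In 5 of 6 RV nPAB libraries Fosl2 was above every Sham library, and nPAB mouse 11 was within the Sham range. The highest value, in nPAB mouse 6, stood well above the next, 279. The means were 282 ± 106 in RV nPAB and 151 ± 34.6 in RV Sham. The log2 fold change was 0.86 (SE 0.22, 95% interval 0.39 to 1.33) with a limma adjusted p of 0.0107. Without nPAB mouse 6 it was 0.69 with an adjusted p of 0.0124, and without nPAB mice 6 and 7 it was 0.71 with 0.0168.

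**Figure D2:**
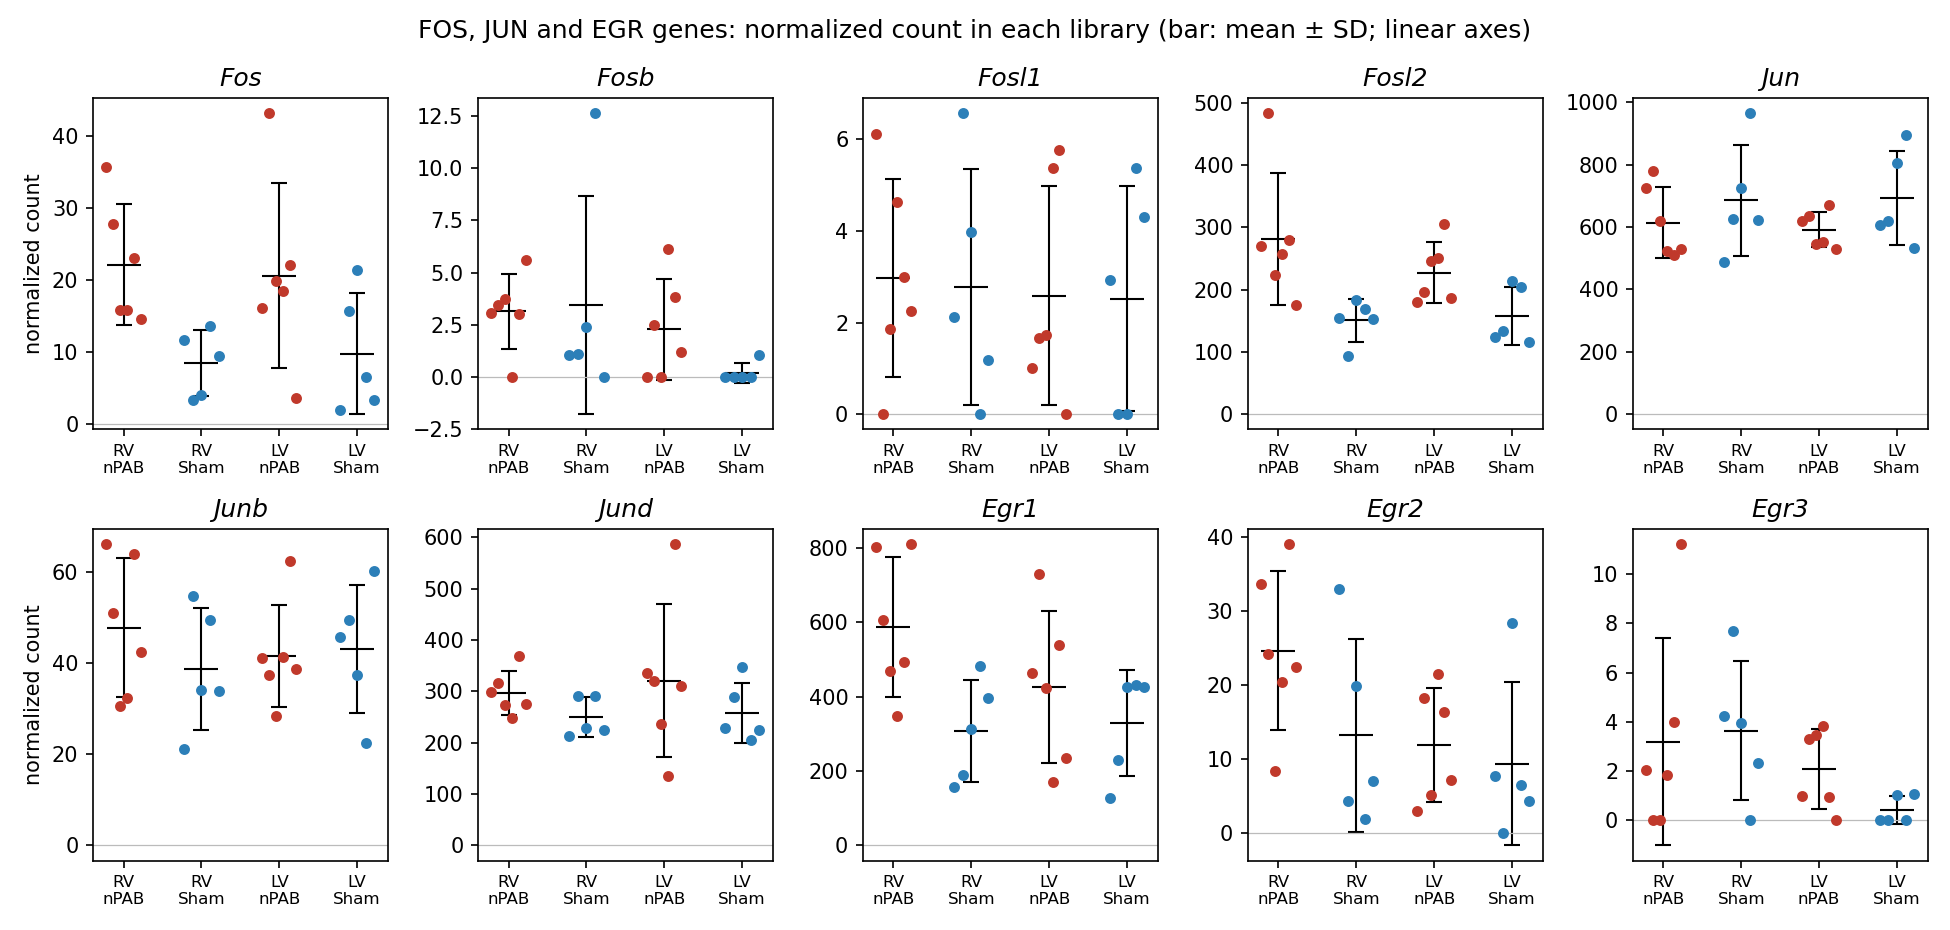
Normalized count of each of the 10 genes in every library of RV nPAB, RV Sham, LV nPAB and LV Sham (points), with the mean and SD as bars. In the RV, all 6 nPAB values of Fos (14.6 to 35.6) lie above all 5 Sham values (3.29 to 13.6) on this scale, but not on reads scaled to library depth.

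In the LV, which does not pump against the band, 0 of 7 tested genes were called by limma in either direction. At an unadjusted p under 0.05 there was 1 of 7, Fosl2, against 24.6% of all LV genes, and edgeR and DESeq2 called 0. Over all 13528 genes tested in the LV, 9.31% were called, 4.76% higher and 4.55% lower in nPAB. No member had LV groups without overlap, which 6.53% of the LV genes had, 3.38% with nPAB higher. The median log2 fold change of the 7 was 0.36, and that of all LV genes was -0.01. Fosl2 had a lowest value of 181, a median of 221 and a highest of 306 in LV nPAB. In LV Sham it had 125, 133, 213, 204 and 115. The groups overlapped, with the low Sham mice 9, 10 and 13 below every nPAB value. The Fosl2 means were 227 ± 48.7 in LV nPAB and 158 ± 46.8 in LV Sham. The log2 difference was 0.55 (95% interval 0.15 to 0.94, limma adjusted p = 0.0745). Without Sham mouse 11 it was 0.66 with an adjusted p of 0.0429, and without nPAB mice 6 and 7 it was 0.56 with 0.148.

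Fos in LV nPAB had a lowest value of 3.63, a median of 19.1 and a highest of 43.2 normalized counts. In LV Sham it had 1.95, 15.7, 21.3, 6.46 and 3.23, so the groups overlapped widely. nPAB mouse 11 lay below Sham mice 10, 11 and 12, and Sham mouse 11 lay above 4 of 6 nPAB mice. The means were 20.5 ± 12.9 in LV nPAB and 9.73 ± 8.42 in LV Sham. The log2 difference was 1.14 with a 95% interval of -0.13 to 2.42 and a limma adjusted p of 0.256. Without nPAB mice 6 and 7 it was 0.76 with 0.579.

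The JUN genes did not pass the test in either ventricle. Jun, on chr4:95049034-95052222, encodes the AP-1 subunit c-Jun, which JNK kinases phosphorylate. In RV nPAB it had a lowest value of 509, a median of 574 and a highest of 778 normalized counts. In RV Sham it had 486, 627, 726, 965 and 621. The groups overlapped almost entirely, with Sham mouse 12 highest. The log2 difference was -0.14 (95% interval -0.47 to 0.19, limma adjusted p = 0.577). In the LV the Jun means were 591 ± 56.7 in nPAB and 691 ± 151 in Sham, a log2 difference of -0.20 (-0.46 to 0.05, limma adjusted p = 0.308). Leaving out nPAB mice 6 and 7 gave -0.24 in the RV (adjusted p = 0.369) and -0.20 in the LV (0.437).

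Junb, on chr8:84974484-84978718, and Jund, on chr8:70698949-70700616, encode AP-1 subunits that can restrain c-Jun. Junb had a lowest value of 30.7, a median of 46.9 and a highest of 66.2 in RV nPAB. RV Sham mice had 21.2, 54.8, 34.13, 49.6 and 34.04. Most values of the groups lay side by side, and the log2 difference was 0.31 (-0.30 to 0.92, limma adjusted p = 0.497). Jund had a lowest value of 248, a median of 287 and a highest of 369 in RV nPAB. RV Sham mice had 213, 292, 229, 291 and 224. Jund overlapped between the groups too, and the log2 difference was 0.25 (-0.02 to 0.52, limma adjusted p = 0.186). In the LV the difference was -0.02 for Junb (-0.61 to 0.57, limma adjusted p = 0.977). For Jund it was 0.21 (-0.44 to 0.86, limma adjusted p = 0.722). Leaving out nPAB mice 6 and 7 gave Junb 0.41 in the RV (adjusted p = 0.413) and 0.13 in the LV (0.857). It gave Jund 0.25 in the RV (0.262) and 0.25 in the LV (0.749). LV Jund was spread most in nPAB, between 136 in mouse 8 and 586 in mouse 10.

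Some JUN counts carry a further uncertainty. Exons of Junb overlap Prdx2 on the opposite strand, whose mean was 3215 normalized counts in the RV and 3313 in the LV. Exons of Jun overlap the antisense gene Junos, with means of 5.18 and 4.97. Fosl1 overlaps Ccdc85b, with means of 73.0 and 76.1. Whether counting used strand is not given in the sources used here. Reads in the overlapping parts of these pairs could therefore not be told apart. Jund overlaps Gm11175, which was listed at 0.

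Egr1, on chr18:34859823-34864984, encodes a zinc finger factor widely induced by growth signals, and its higher level in RV nPAB just missed the threshold. In RV nPAB it had a lowest value of 347, a median of 549.8 and a highest of 809.9 normalized counts. In RV Sham it had 157, 191, 314, 481 and 398. Of the 6 nPAB libraries, 4 were above every Sham library, and mice 7 and 8 were within the Sham range. The means were 588 ± 188 in RV nPAB and 308 ± 137 in RV Sham. The log2 difference was 0.99 (SE 0.33, 95% interval 0.26 to 1.72, limma adjusted p = 0.0545). DESeq2 on recovered reads gave 0.93 with an adjusted p of 0.0295, and edgeR gave 0.92 with 0.0697. The limma call was made without nPAB mouse 8 (1.13, adjusted p = 0.0305), Sham mouse 12 (1.18, 0.0251) or Sham mouse 13 (1.11, 0.048). With all mice kept, limma also called it under a filter at a mean of at least 50. Without nPAB mice 6 and 7 the log2 difference was 1.03 with 0.121.

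In the LV, Egr1 had a lowest value of 170, a median of 444 and a highest of 729 in nPAB. In LV Sham it had 128, 231, 427, 433 and 427. The groups overlapped, with nPAB mice 8 and 11 low and Sham mice 9 and 10 low. The means were 427 ± 204 in LV nPAB and 329 ± 142 in LV Sham. The log2 difference was 0.36 (-0.67 to 1.39, limma adjusted p = 0.69), and with nPAB mice 6 and 7 left out it was 0.09 with 0.95. The interval over all mice is wide enough to hold both no change and the RV value.

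Egr2, on chr10:67535475-67542188 and best known for directing myelination in Schwann cells, was low and scattered. In RV nPAB it had a lowest value of 8.38, a median of 23.4 and a highest of 39.0 normalized counts. In RV Sham it had 32.9, 4.38, 19.8, 1.95 and 7.04. The groups overlapped, with Sham mouse 9 above all but 2 nPAB values and Sham mouse 11 above the lowest of them. The log2 difference was 1.26 (0.07 to 2.44, limma adjusted p = 0.124). Over 20 alternatives it was 0.82 to 1.70, with adjusted p of 0.0353 to 0.302. The call was made in 1 of them, without Sham mouse 9 (1.70, adjusted p = 0.0353). The lowest value was without Sham mouse 12 (0.82, 0.302), edgeR gave 0.87 (0.295) and DESeq2 gave 0.89 (0.269). With nPAB mice 6 and 7 left out it was 1.56 (0.0854). In the LV the means were 11.9 ± 7.72 in nPAB and 9.39 ± 11.0 in Sham, with a difference of 0.76 (-0.78 to 2.30, limma adjusted p = 0.567), or 0.75 (0.662) with those mice left out.

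**Figure D3:**
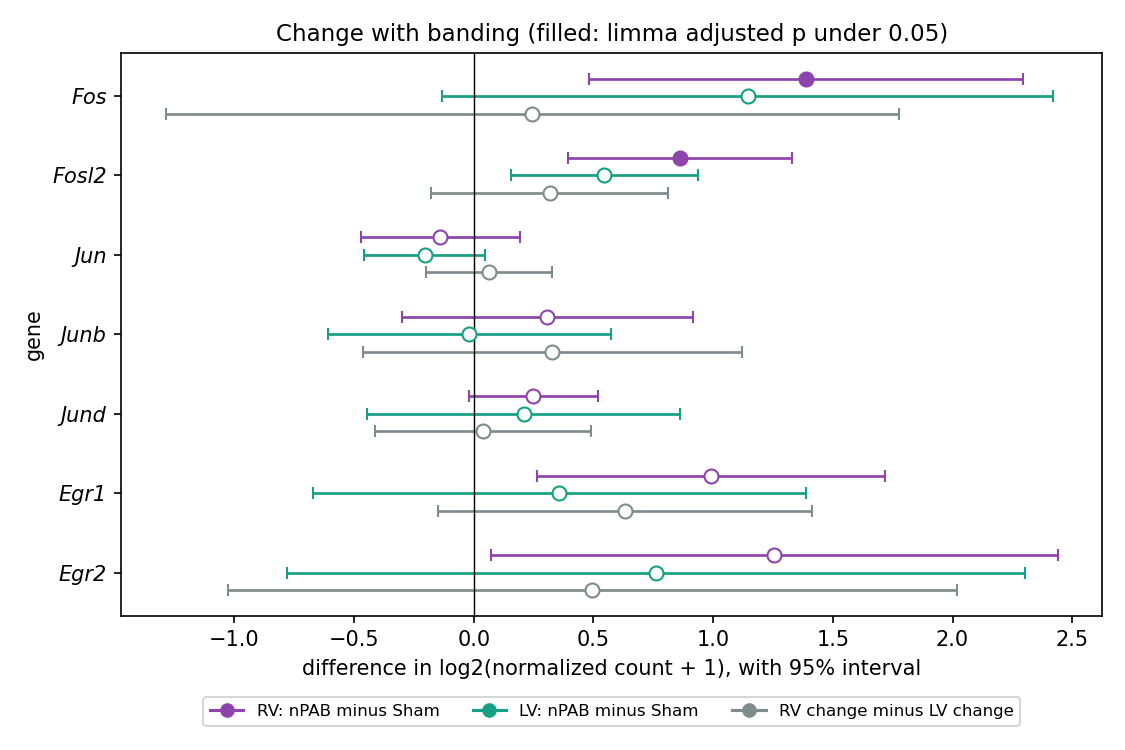
Difference in log2 (normalized count + 1), nPAB minus Sham, in the RV and the LV, and the RV minus LV difference, for the 7 tested genes, with 95% intervals. Fos (1.39) and Fosl2 (0.86) in the RV are the filled points, with a limma adjusted p under 0.05.

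Fosb (chr7:19302696-19310051), Fosl1 (chr19:5447547-5455946) and Egr3 (chr14:70077203-70082614) had means under 10 in both ventricles and were tested singly. FOSB and FRA1, the product of Fosl1, are FOS relatives, and EGR3 is a relative of EGR1. An exact two-sided permutation test over all 462 splits of 11 libraries, whose smallest possible p is 0.00433, was run 6 times with Benjamini-Hochberg adjustment. The RV log2 differences were 0.33 for Fosb (p = 0.654), 0.16 for Fosl1 (p = 0.801) and -0.41 for Egr3 (p = 0.597) by exact permutation. The RV Fosb means ran the other way, 3.14 normalized counts in nPAB and 3.44 in Sham, through Sham mouse 12 at 12.6. In the LV the log2 differences were 1.13 for Fosb (p = 0.0909, adjusted 0.364), 0.14 for Fosl1 (p = 0.836) and 1.01 for Egr3 (p = 0.121, adjusted 0.364) by the same exact test. None of the 6 passed.

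Fosb in LV nPAB was listed at 0 in 2 mice and reached 6.15 normalized counts, while in LV Sham it was 0 in mice 9 to 12 and 1.08, a single read, in mouse 13. Egr3 in LV nPAB was 0 in 1 mouse and reached 3.84, against 0, 0, 1.01, 0 and 1.08 in LV Sham. Within the LV, the highest values of both genes were in nPAB libraries, at depths where 1 read is about 1 normalized count. Leaving out 1 mouse at a time gave LV Fosb differences of 0.83 to 1.40 and LV Egr3 differences of 0.84 to 1.29. The unadjusted exact permutation p was under 0.05 (0.0476) only where a nPAB library at 0 was the one left out, mouse 5 or 7 for Fosb and mouse 11 for Egr3.

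The direct test of whether the response differed between ventricles used log2 RV minus log2 LV within each mouse. No member was called: 0 of 7 passed by limma, edgeR or DESeq2 (which gave Fos and Egr2 no adjusted p), and 0 of 7 had an unadjusted limma p under 0.05. Over all 13364 genes, 1.11% were called, 0.584% with the nPAB difference higher and 0.524% lower. An unadjusted limma p under 0.05 was found for 12.5% of them. The median of the 7 was 0.32, against 0.01 over all genes. For Fos the RV response minus the LV response was 0.24 (95% interval -1.29 to 1.78, limma adjusted p = 0.943), and without nPAB mice 6 and 7 it was 0.62 with 0.818. For Fosl2 it was 0.32 (-0.18 to 0.81, limma adjusted p = 0.663), and without these mice it was 0.16 with 0.825. For Egr1 it was 0.63 (-0.15 to 1.41, limma adjusted p = 0.53), and without these mice it was 0.94 with 0.154. The Fos and Fosl2 responses, called in the RV and not in the LV, were thus not shown to differ between ventricles.

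Between the 2 libraries of a mouse, neither ventricle had the higher level throughout. On reads scaled to library depth, RV Fos was above LV Fos in 2 of 6 nPAB mice and 3 of 5 Sham mice. RV Fosl2 was above LV Fosl2 in 2 of 6 nPAB and 2 of 5 Sham mice. RV Egr1 was above LV Egr1 in 4 of 6 nPAB and 2 of 5 Sham mice. RV Egr2 was above LV Egr2 in 5 of 6 nPAB and 3 of 5 Sham mice. These counts include nPAB mice 6 and 7, whose libraries differ in sex. Over the other 4 nPAB mice, the RV was above the LV in 2 for Fos, 1 for Fosl2, 3 for Egr1 and 3 for Egr2.

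The other dimer partners of AP-1 moved in both directions. Of 12 listed relatives, 9 were tested in the RV, where 3 rose and 4 fell, with a median log2 fold change of 0.10. Over all RV genes 11.1% were called higher and 10.8% lower. Those that rose were Atf3, a stress-induced ATF factor (1.78, limma adjusted p = 0.00483), and the small MAF proteins Maff (1.63, 4.8e-04) and Mafk (0.90, 0.0216), which lack an activation domain. Those that fell included Atf2 (-0.33), Atf7 (-0.49) and Maf (-0.42). Atf3 had 53.0 to 170 normalized counts in RV nPAB and 7.43 to 47.7 in RV Sham, with no overlap. In the LV, Maff (1.20) and Mafk (1.04) rose, 2 genes fell, Atf2 (-0.31) among them, and Atf3 at 1.79 did not pass (adjusted p = 0.105). Of all LV genes, 4.76% were called higher and 4.55% lower. Without nPAB mice 6 and 7, 2 rose and 4 fell in the RV, and 0 rose and 2 fell in the LV. Batf, which dimerizes with JUN proteins in immune cells, Batf2 and Batf3 had means under 10.

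The corepressors that EGR factors recruit, Nab1 and Nab2, were 0.12 and 0.36 on the log2 scale in the RV, and neither passed. In this list limma called 0 of 3 tested genes in each ventricle, and edgeR and DESeq2 called 0. An unadjusted limma p under 0.05 was found for 1 gene in the RV and 0 in the LV. Of all genes tested, 22.0% in the RV and 9.31% in the LV were called. The unadjusted p was under 0.05 for 33.8% of RV genes and 24.6% of LV genes. Without nPAB mice 6 and 7, limma again called 0 in each ventricle. Wt1, a zinc finger relative, was 0.50 in the RV, and Egr4 was listed at 0 in every library.

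Among 15 upstream transcription factors, 1 rose and 3 fell in the RV, with a median of -0.13. These 4 of 15 are near the 22.0% of all RV genes called. Stat3, which cytokine receptors activate, rose (0.59, limma adjusted p = 3.19e-05), while the CRE-binding factor Creb1 (-0.60), Mef2a (-0.35) and Mef2c (-0.41) fell. Srf encodes the factor that binds CArG boxes, whose letters were found in Egr2 above, and binding there was not measured. Srf was 0.13 in the RV (limma adjusted p = 0.507), and its partners Elk1, Elk3 and Elk4 were -0.25, 0.08 and -0.09. In the LV, Srf (0.55, limma adjusted p = 0.0109) and Stat3 (0.52) rose, and Creb1 (-0.65), Mef2c (-0.48) and Mef2d (-0.34) fell. That is 2 higher and 3 lower of 15, against 9.31% of all LV genes called in either direction. Without nPAB mice 6 and 7 the RV counts were 1 and 3 and the LV counts 1 and 2.

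Of 18 genes of the MAP kinase cascade, which relays growth signals to these promoters, 1 rose and 3 fell in the RV. These 4 of 18 are near the 22.0% of all RV genes called. Map2k1, the kinase MEK1, rose (0.69, limma adjusted p = 2.15e-05), and Map2k6 (-0.97), Mapk14 (-0.23) and Rps6ka5 (-0.998) fell. The ERK gene Mapk3 was -0.11, Mapk7 was -0.32 and Mapk8 was -0.19, and none of these passed. In the LV, Map2k4 (0.29) rose, and Map2k6 (-0.62) and Map3k1 (-0.44) fell, against 9.31% of all LV genes called. When nPAB mice 6 and 7 were left out, 1 rose and 2 fell in the RV, and none was called in the LV. These are message levels, and kinase activity was not measured.

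Other immediate early genes behaved as a mixed group. Of 25 listed, 24 were tested in the RV, where 12 rose, 4 fell and 8 did not pass, with a median of 0.49, against 22.0% of all genes called. The largest rises on the list were in the orphan nuclear receptors Nr4a3 (2.79) and Nr4a1 (2.29). Nr4a3 had 106 to 158 normalized counts in RV nPAB and 12.7 to 30.5 in RV Sham. Others that rose were Atf3, Maff, Ier2 (0.94), Ier3 (0.66), Ier5 (0.80), Klf2 (0.86), Klf4 (0.86), Btg2 (0.63), the RNA-decay factor Zfp36 (0.70) and the MAP kinase phosphatase Dusp1 (0.65). Ier2 ran between 129.5 and 185 in RV nPAB and between 48.4 and 107 in RV Sham. Klf10 (-0.47), Btg1 (-0.72), Nfil3 (-0.72) and Gadd45b (-1.38) fell, and without nPAB mice 6 and 7 the RV counts were again 12 and 4.

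In the LV, 10 of 24 rose and 3 fell, with a median of 0.47, against 9.31% of all genes called. They were Ier3 (0.48), Klf2 (0.55), Klf4 (0.76), Btg2 (0.62), Zfp36 (0.66), Dusp1 (0.60), Srf, Nr4a1 (2.26), Nr4a3 (3.11) and Maff, while Klf10 (-0.57), Btg1 (-0.78) and Zfp36l1 (-0.36) fell. With nPAB mice 6 and 7 left out, 4 rose and 1 fell in the LV. No immediate early gene of this list was called for a difference between ventricles by limma, edgeR or DESeq2. At an unadjusted limma p under 0.05 there were 4 of 24. Over all genes tested for this difference, 1.11% were called and 12.5% had an unadjusted p under 0.05.

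**Figure D4:**
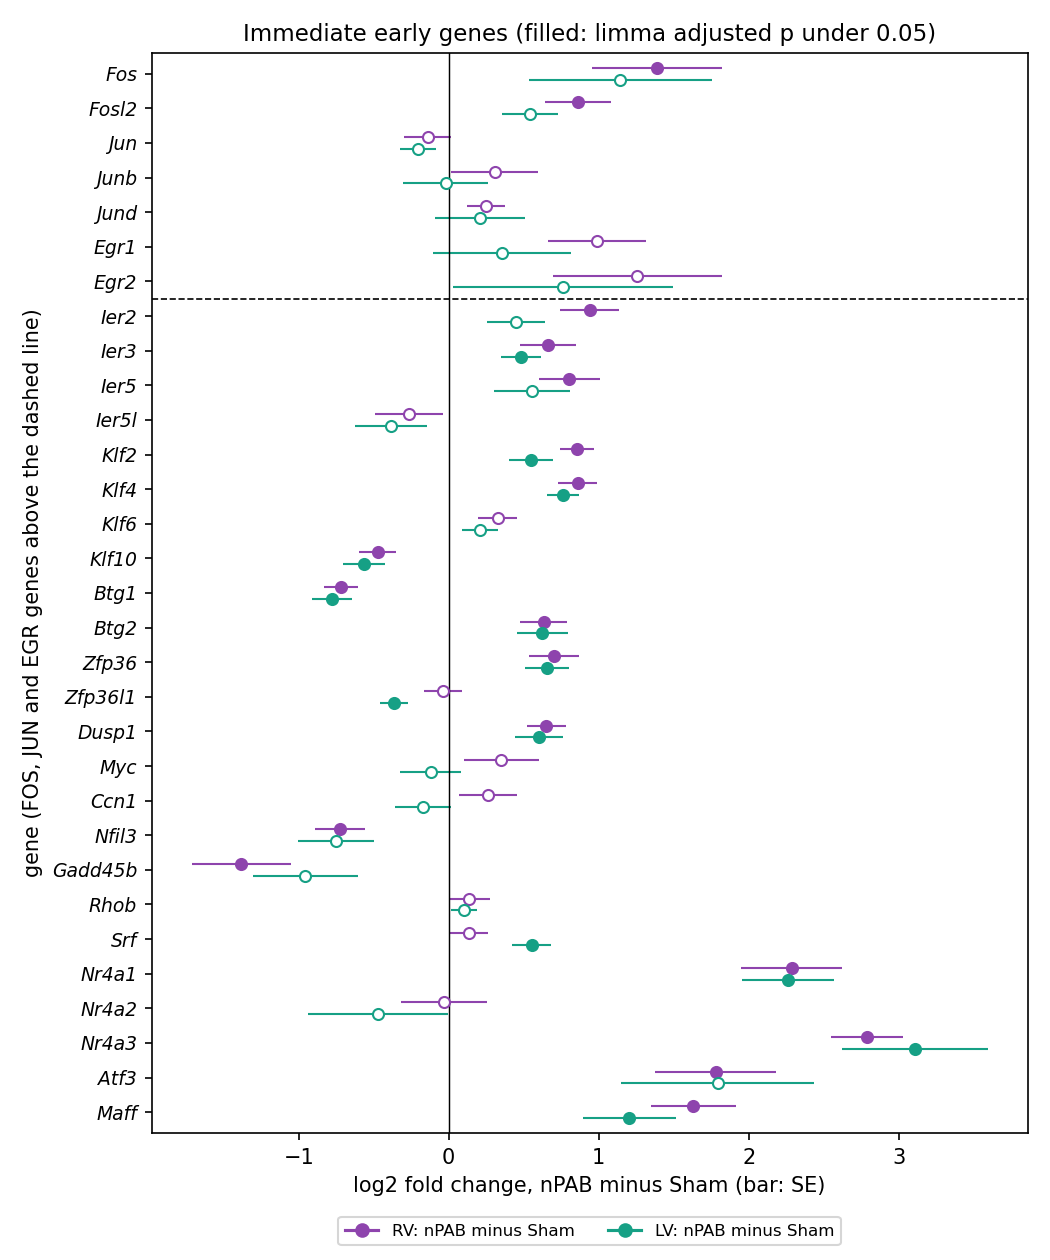
Log2 fold change, nPAB minus Sham, of the FOS, JUN and EGR genes (above the dashed line) and of other immediate early genes (below it), in the RV and the LV, with SE bars and filled points for a limma adjusted p under 0.05. Nr4a1 and Nr4a3 lie above 2 in both ventricles, while the JUN genes lie near 0.

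Genes that AP-1 is reported to activate rose in part. Of 22 listed, 15 were tested in the RV, where 8 rose and 0 fell, with a median of 0.54. At an unadjusted p under 0.05 there were 11, and edgeR called 7 and DESeq2 called 9. Over all RV genes 11.1% were called higher and 33.8% had an unadjusted p under 0.05. They were the protease inhibitor Timp1 (1.06), the growth factor Hbegf (1.65), Plaur (1.22), Cd44 (0.57), Fn1 (0.31), the collagen crosslinker Lox (0.83), Mmp14 (0.45) and Vegfa (0.54). Hbegf had 128 to 474 normalized counts in RV nPAB and 58.1 to 106 in RV Sham, with no overlap. Mmp2 was -0.05, and Mmp3 and Mmp9 had means under 10. In the LV, Hbegf (0.83), Lox (0.50), Fn1 (0.35) and Mmp14 (0.30) rose, against 4.76% of all LV genes called higher. Leaving out nPAB mice 6 and 7, 6 rose in the RV and none was called in the LV.

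Of 15 reported EGR targets, 14 were tested in the RV, where 3 rose and 2 fell, with a median of 0.20, against 11.1% of all RV genes called higher and 10.8% lower. The cell cycle inhibitor Cdkn1a (1.09), Ndrg1 (0.97) and Vegfa (0.54) rose, and Igf2 (-0.49) and Gadd45a (-0.96) fell. The growth factor genes Pdgfa and Pdgfb were 0.12 and 0.34 and did not pass. In the LV, Cdkn1a (0.96) and Ndrg1 (0.99) rose and Igf2 (-0.38) fell, against 4.76% of all LV genes called higher and 4.55% lower. Without nPAB mice 6 and 7 the counts were 3 and 2 in the RV and 2 and 1 in the LV. Many other factors act on these genes, and several stand in more than 1 list.

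As a description of patterns among libraries, deviations from the group means of log2 values were correlated over the 11 libraries of a ventricle. The genes most like Fos in the RV were Mob3b (r = 0.90), Dnajc2 (0.90), Alpk1 (0.90), Hsdl1 (0.88) and Cstf2t (0.87). In the LV they were Usp11 (0.92), Tmem138 (0.90), Fbxw4 (0.90), Tmem97 (0.89) and Rhno1 (0.89). The genes most like Egr1 in the RV were Epm2a (0.94), Actr1b (0.91), Slc35f6 (0.91), Med14 (0.90) and Pitpnm1 (0.89). In the LV they were Gm12337 (0.95), Ranbp3 (0.95), Nfkbie (0.94), Inpp5j (0.92) and Rpl10-ps3 (0.90). The named genes differed between the ventricles for both Fos and Egr1. Fos and Egr1 themselves correlated at 0.35 in the RV and 0.52 in the LV, and Fos and Fosl2 at 0.53 and 0.47. All points of a ventricle share 1 normalization, and with 11 libraries the highest correlation over all tested genes is high by selection.

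Markers of 11 cell types were summed beside these results. For all 11, the nPAB and Sham ranges of the summed level overlapped in both ventricles. In the RV the cardiomyocyte sum was 331500 to 438100 in nPAB and 366700 to 428500 in Sham, and the fibroblast sum was 17920 to 29160 in nPAB and 26770 to 34960 in Sham. The macrophage sum was 812 to 1852 in RV nPAB and 813 to 1680 in RV Sham, and the neutrophil sum was 238 to 455 in nPAB and 157 to 385 in Sham. By medians in the RV, the atrial sum ran highest relative to Sham, with a lowest of 737, a median of 3370 and a highest of 9777 in RV nPAB and 161.5, 1695 and 2474 in RV Sham. Its 4 markers had positive log2 differences in the RV (Myl4 2.11, Bmp10 1.76, Myl7 1.66 and Sln 1.33), and none passed. In the LV the atrial sum was 351 to 2081 in nPAB and 477 to 1465 in Sham. Of 47 markers tested, 5 rose in the RV (Actc1, Retnlg, Hbb-bt, Cspg4 and S100b) and 5 fell, among them Ryr2, Tnni3, Pln and Pdgfra, or 21.3% called against 22.0% of all RV genes. With nPAB mice 6 and 7 left out, 3 rose and 4 fell. In the LV, Actc1 alone rose and none fell, or 2.13% called against 9.31% of all LV genes. Without nPAB mice 6 and 7 none was called in the LV. Their part in the FOS and EGR results was not tested.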

How the data were processed

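RNA came from RV or LV tissue (RNeasy Plus Mini kit from Qiagen), and the library kit was the Revelo High Sensitivity kit for RNA-Seq, per the labels. Among tools, the submitters' processing notes list DESeq2, featureCounts and cutadapt, with mm10 as build. No aligner or tool version is given in those notes. The authors deposited a signal for each gene, its count divided by a DESeq2 size factor, with a separate table and normalization for each ventricle, per the labels. Levels of the RV and LV were therefore set side by side only as reads scaled to library depth or as differences within a mouse. The header lines hold 2 empty cells, and sample names were read in order past them.

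All values, 100%, were whole multiples of 1 read's value within 0.001, which gave reads per library. Symbols and coordinates came from GENCODE M21 (49411 of 49670 RV genes and 49412 of 49671 LV genes had a symbol). The main test was limma 3.58.1 in R 4.3.3 on log2 (value + 1), trend and robust options, restricted to a mean of 10 or more, with two-sided p-values adjusted by Benjamini-Hochberg and a threshold of 0.05. On this scale the pseudocount understates the change of low genes, and differences of mean logs can be larger or smaller than the fold changes of count models. The difference between ventricles was tested on log2 RV minus log2 LV per mouse. Members with a mean under 10 had an exact permutation test. edgeR 4.0.16 and DESeq2 1.42.0 on the recovered reads were alternatives, with other pseudocounts (0.5 and 5), filters, scaling and left-out mice. On simulated RV counts, only limma (on rescaled counts) and edgeR were checked, for nPAB against Sham. DESeq2, the difference between ventricles and the permutation test were not checked this way. Figures used matplotlib 3.10.9.

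The RV and LV of a mouse are paired through the mouse number in their titles. As a check, deviations of same-numbered libraries from their group means were correlated over 12899 genes. The correlation was 0.132 to 0.383 in 9 mice, 0.172 in nPAB mouse 6 and 0.0548 in nPAB mouse 7. In those 9 mice the RV library correlated most with the LV library of its own number, among LV libraries of its treatment. In nPAB mice 6 and 7 it did not. Every pair of libraries in a group differed by more than sampling noise, with a chi-square of at least 7.47 per degree of freedom. Promoter sequences were from RefSeq. They were found for 7 of 10 members. The members and gene lists were chosen with earlier results of these data known. All members were named, with the first 4 genes of each list, called genes where 5 or fewer were called and all called immediate early genes. Other called list genes were also named, chosen after their values were seen. Some genes that the rule names are left out of the text.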

Additional observations from a re-analysis of the deposited data

Results flagged for a closer look

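In 5 of 40 groups of a member, 1 library stood far from the others of its group by Dixon's test. Chance flags about 1 in 20 groups of normally distributed values. That rate need not hold at a few reads per library, so it gives no expected number here. Fosl2 in RV nPAB mouse 6 was 484 normalized counts (558 reads), against 279 in the next library of the group. Egr2 in LV Sham mouse 11 was 28.4 normalized counts, against 7.79 in the next. Egr3 in RV nPAB mouse 11 was 11.2 normalized counts, from 10 reads, against 4.00 in the next. Fosb in RV Sham mouse 12 was 12.6 normalized counts, from 13 reads, against 2.38 in the next. Fosb in LV Sham mouse 13 was 1.08 normalized counts, from 1 read, with the other libraries at 0.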

How the results depend on the processing

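Fosl2 in the RV was called in all 21 alternatives (log2 fold change 0.69 to 0.98, adjusted p 7.51e-04 to 0.0336) and Fos in 14 of 20 (1.04 to 1.59, 0.0163 to 0.0703). Egr1 in the RV was called in 5 of 21 (0.78 to 1.18, 0.0251 to 0.121), Egr2 in the RV in 1 of 20 and Fosl2 in the LV in 1 of 21. No called value changed sign. Uncalled values changed sign in 6 of 20 alternatives for Junb in the LV, and for the difference between ventricles in 3 of 22 for Fos, 2 of 23 for Jun and 4 of 23 for Jund. Leaving out 1 mouse at a time gave 1 to 3 members called in the RV, 0 to 1 in the LV and 0 for the difference, and without nPAB mice 6 and 7 the RV count was 1. The LV count of 1260 genes became 739 without the trend and robust options, 668 without nPAB mice 6 and 7 and 841 to 1290 without 1 mouse. The count of 148 genes for the difference became 1 without trend and robust options, 261 with library weights, 249 by DESeq2, 501 without nPAB mice 6 and 7, and 80 to 393 without 1 mouse. It was 5 without the replicate block by mouse and 63 with nPAB mice 6 and 7 crossed, a pairing chosen after seeing the data; neither changed a member's call. The causes were not tested. Fosb, Fosl1 and Egr3, at a few reads per library, limit what can be said of them.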
